A study of Mus musculus with 3 samples.

Results

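The genes described here are those that stood highest or lowest in the tumor tissue, above or below both the normal liver and the cell line grown from such a tumor. Their values come from 3 Mouse Whole Genome OneArrays, 1 each for the liver of a wild type female mouse, for tissue of a hepatocellular carcinoma (HCC) from a Gnmt-/- female, and for Ymac-1, a line grown out of a liver tumor of a Gnmt-/- mouse. Gnmt-/- mice lack glycine N-methyltransferase in every cell from birth and develop liver tumors without a carcinogen, and Ymac-1 is 1 line, kept in culture dishes through many passages and described as sarcomatoid. Ymac-1 came from an old mouse. The ages of the liver and HCC donors, the strain, and whether the HCC array holds the tumor that gave Ymac-1 are not given by the sources at hand, and the labels give no sex for Ymac-1. The study cites an earlier deposit for its liver and HCC arrays, so a batch of arrays and the condition cannot be told apart. Intensities were quantile normalised over the 3 arrays, set to a floor of 50 and taken to log2. A gene's tumor-only value is the smaller in size of HCC minus normal liver and HCC minus Ymac-1 where both have the same sign, and 0 otherwise. At a threshold of 1 on the log2 scale, which is 2-fold, 443 of 19084 genes were higher in HCC alone and 120 were lower in HCC alone. With 1 array per condition nothing here could be checked against replicates, no test was run and the counts below describe these arrays.

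A liver tumor is a mixture of malignant hepatocytes, blood vessels, macrophages, fibroblasts and blood, whereas a line in a dish holds the malignant cells that could grow there. Hepatocytes in tumors often switch on genes of the fetal liver, such as the imprinted growth factor Igf2, and fat-laden liver draws in macrophages that take up lipid. In RNA from whole tissue, fewer cells of a type and less RNA per cell cannot be told apart.

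Gnmt itself read 12.3 in HCC against 4459.8 in liver and 58.7 in Ymac-1. Liver exceeded HCC at least 89.2-fold, and the gene is not among the genes lower in HCC alone because Ymac-1 was near the floor as well. The hepatocyte label of the tumor held, since all 26 measured hepatocyte markers lay above the floor in HCC with a median difference of 0.16 from liver, and 17 of them lay at the floor in Ymac-1. As deposited, the median probe read 38.5 in HCC against 15.8 in liver and 27.6 in Ymac-1, and the step by which the authors scaled the arrays is not given by the sources at hand. Quantile normalisation brought the median difference over the 8047 genes that exceeded the floor on every array to -0.06 for HCC minus liver and -0.18 for HCC minus Ymac-1. All intensities and differences below are on this normalised scale, and folds with an array at the floor are lower bounds.

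The HCC array had 916 genes higher than normal liver (4.8% of all genes) and 626 lower (3.28%), and against Ymac-1 it had 2602 higher (13.6%) and 3055 lower (16%). The genes higher in HCC alone made up 2.32% of all genes and those lower in HCC alone 0.629%. Of the genes higher in HCC than in liver, 48.4% were higher in HCC alone and 251 were lower in HCC than in Ymac-1, whereas of the genes lower in HCC than in liver 19.2% were lower in HCC alone. A gene that peaks in the tumor and one that dips there thus differed in number by the same rule, though that balance turns with the scaling, as the closing paragraphs give.

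**Figure D1:**
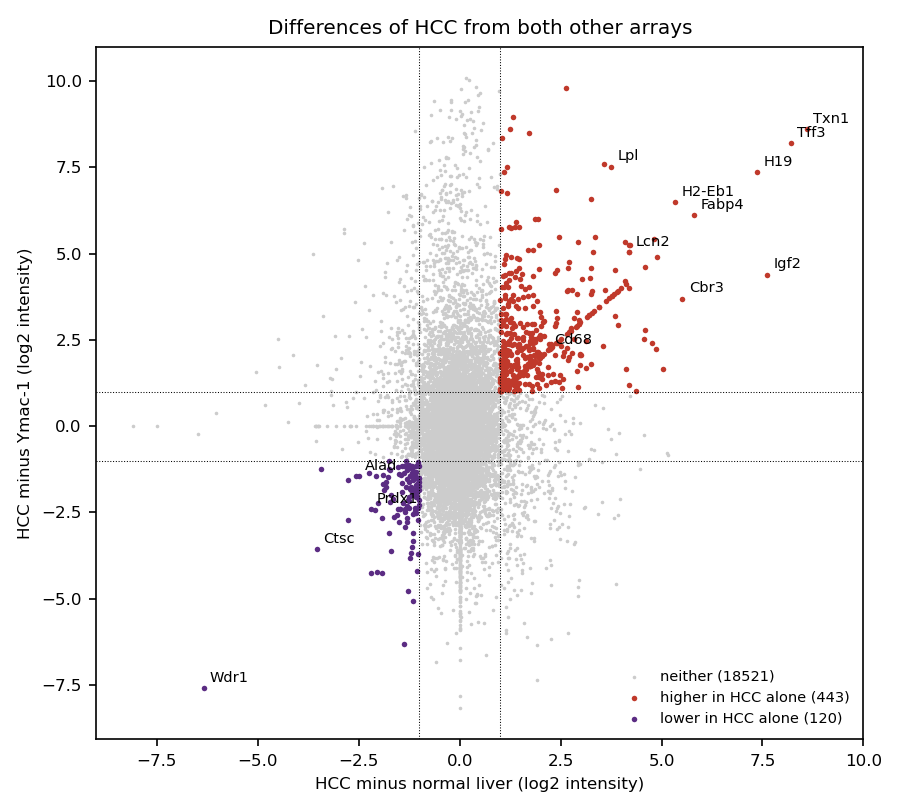
Each point is a gene, with HCC minus normal liver on the x axis and HCC minus Ymac-1 on the y axis, both in log2 intensity, and dotted lines mark differences of 1 in size. The 443 genes higher in HCC alone (red) reach 8.60 with Txn1, while of the 120 lower in HCC alone (purple) only Wdr1 and Ctsc lie beyond 3 in size.

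The 443 genes had a median tumor-only value of 1.47, with 115 at 2 or more, 46 at 3 or more and 18 at 4 or more. Both other arrays were at the floor for 101 of them, 155 were above the floor in liver but not in Ymac-1, 23 in Ymac-1 but not in liver, and 164 on all 3 arrays. The 120 lower genes had a median of -1.22, with 8 at 2 or more in size. Of these, 104 were still above the floor in HCC and 16 were at it. The threshold divides genes of like values. Spint2, Pros1 and Fndc10 lay just inside it on the higher side, at 1.00 for each, and Cdhr5, Mpzl2 and Mcam just outside, at 0.99, 0.99 and 0.98. A further probe of Spint2 read 549 in HCC against 334 in liver and 1170.4 in Ymac-1, which is lower than Ymac-1 by -1.09. On the lower side Trmt10c, Haus4 and Adprhl2 were just inside, with Adprhl2 at -1.01, and Wrap73, Yars and Trmt112 just outside, with Wrap73 at -0.998.

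Probes that the rule did not use gave a second reading of some genes. Of the higher genes, 55 had several probes, and 31 of the 64 further probes lay above the floor on an array. Among those 31, 13 passed the threshold in the same direction, 24 had both differences in that direction, none passed the other way, and the median was 0.77. Of the 1259 further probes above the floor over all genes, 1.83% were higher in HCC alone. The further probes of Gpnmb, Epcam, Acta2, Btg2 and Ush1c, genes named below, were at the floor on all 3 arrays. With the mean of its probes, Epcam had a tumor-only value of 0.85 and Acta2 of 0.78, under the threshold. For the lower genes, 10 further probes were above the floor, of which 1 passed in the same direction, 7 had both differences in that direction and none passed the other way, with a median of -0.28, where 1.67% of all further probes were lower in HCC alone. The single passing probe belonged to Med8, a subunit of the Mediator complex.

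**Figure D2:**
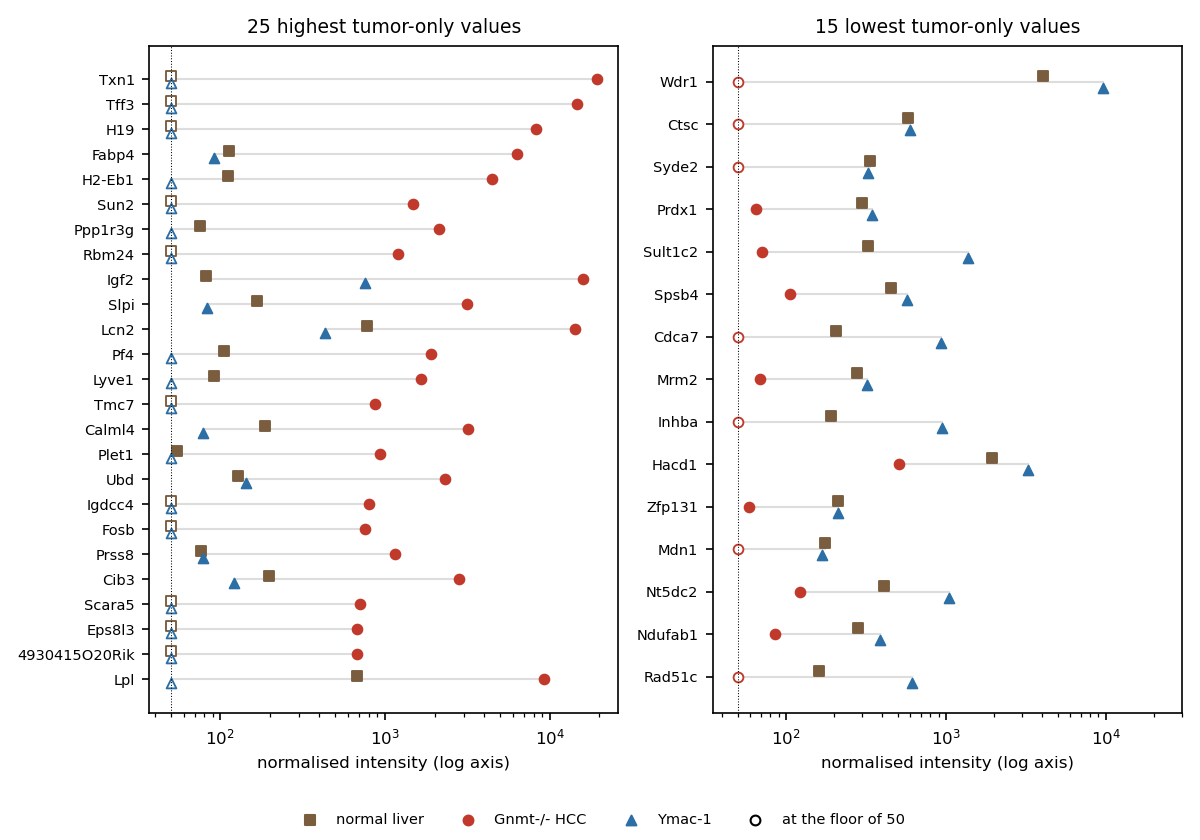
Normalised intensity on a log axis for the 25 genes with the highest and the 15 with the lowest tumor-only values, with squares for normal liver, circles for HCC and triangles for Ymac-1, and open symbols for readings set to the floor of 50. Tff3 and H19 are at the floor in both other arrays, Igf2 and Lcn2 are above it in all 3, and Wdr1 and Ctsc fall to the floor in HCC alone.

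Genes of the fetal liver, imprinted genes and genes known from tumors were well represented. Of 37 measured, 11 were higher in HCC alone (2.32% over all genes) and none was lower, with medians of 1.03 for HCC minus liver and 0.00 for HCC minus Ymac-1. Igf2, a growth factor of fetal tissues, read 15944 in HCC against 81.5 in liver and 762 in Ymac-1. HCC exceeded liver 196-fold and Ymac-1 20.9-fold, and the line kept a level above that of liver. H19, the imprinted long RNA that neighbours Igf2, read 8262 in HCC against 26.5 in liver and 20.6 in Ymac-1, so that the line held Igf2 above the floor without H19. Afp, the fetal counterpart of albumin, read 718 in HCC against 17.3 in liver and 78.5 in Ymac-1, and Gpc3, a cell surface proteoglycan used as a marker of human HCC, read 462 in HCC against 72.6 in liver and 96.9 in Ymac-1. Both were low in Ymac-1 but not absent by this floor. Gpc1, a related proteoglycan, was 3.84-fold higher than in liver and 2.96-fold higher than in Ymac-1. The imprinted genes did not move as one. Dlk1 and Meg3 lay at the floor on all 3 arrays, and Peg3 read 5959 in HCC against 2550.2 in liver and 3938 in Ymac-1, higher than liver by 1.22 and higher than Ymac-1 by 0.60. The insulin-like growth factor list, with 18 measured members, had 4 higher in HCC alone, which were Igf2, H19, Igfbp1 and Irs2. Igfbp1, a secreted binding protein that hepatocytes make in fasting and stress, read 44215 in HCC against 7148 in liver and 6.57 in Ymac-1.

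Secreted and surface proteins of mucosal epithelia were among the highest. Tff3, a trefoil peptide of mucous surfaces, read 14730.3 in HCC against 3.58 in liver and 10.96 in Ymac-1, a difference of at least 295-fold from either. Slpi, a protease inhibitor of secretions, read 3144 in HCC against 168 in liver and 83.5 in Ymac-1. Slpi thus stayed above the floor in liver and Ymac-1, and Tff3 did not. Ly6d, a surface antigen of epithelial and B lineage cells, read 9689 in HCC against 807 in liver and 17.6 in Ymac-1, and Plet1, a surface protein of epithelial progenitors, read 929 in HCC against 54.6 in liver and 24.1 in Ymac-1. A list of 25 genes of absorptive epithelium and its microvilli, drawn up after the values were seen, held 12 higher in HCC alone, with medians of 0.99 and 1.63. Such a count is no result on its own, since the list was written with the values known. Calml4, a calmodulin-like light chain of the brush border, read 3199 in HCC against 186 in liver and 78.7 in Ymac-1, and Ush1c, Myo7b and Eps8l3, which belong to the complexes at the tips of microvilli or bind actin there, read 335, 118 and 681 in HCC, with Myo7b and Eps8l3 at the floor elsewhere. The second probe of Calml4 was at the floor in liver and Ymac-1 and at 60.6 in HCC. Guca2a and Guca2b, the peptide hormones guanylin and uroguanylin of the gut, read 155 and 174 in HCC. Muc13, a membrane mucin, read 609.6 in HCC against 51.6 in liver and 121 in Ymac-1.

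Epithelial adhesion and membrane protease genes were also among the higher genes. On a list of 22, again drawn up after the values were seen, 11 were higher in HCC alone, a count that is no result on its own. Cdh1, which encodes E-cadherin, read 714 in HCC against 75.5 in liver and 204 in Ymac-1, and Epcam, an adhesion molecule of bile ducts and liver progenitors, read 321 in HCC against 98.3 in liver and 0.82 in Ymac-1. Normal liver held little of either, and Ymac-1 kept some Cdh1 but no Epcam above the floor. The protease prostasin, encoded by Prss8, read 1149 in HCC against 76.5 in liver and 78.4 in Ymac-1, its relatives Tmprss4 and Tmprss2 read 328 and 736 in HCC, and Elf3, a transcription factor of epithelia, read 1363 in HCC against 28.4 in liver and 255 in Ymac-1. A further probe of Tmprss4 gave 269 in HCC against 53.3 in liver and 49.7 in Ymac-1. Of the 11 measured bile duct markers, however, Epcam alone was higher in HCC alone (2.32% over all genes). Krt19 and Sox9, which define bile duct cells, were at 78.6 and 56.9 in HCC against 7833 and 337 in Ymac-1.

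Lipid handling genes went in both directions. Fabp4, which binds fatty acids in adipocytes and macrophages, read 6357 in HCC against 113 in liver and 91.6 in Ymac-1, 56.02-fold above liver and 69.4-fold above Ymac-1. Lpl, the lipase that frees fatty acids from lipoproteins and that adult hepatocytes keep low, read 9185 in HCC against 678 in liver and 32.9 in Ymac-1. Cidea, a droplet protein of brown fat and of fatty liver, read 366 in HCC against 15.2 in liver and 17.03 in Ymac-1, and Fabp5, a carrier of macrophages and epithelia, read 375 in HCC against 45.2 in liver and 123 in Ymac-1. Plin2, the coat protein of lipid droplets in hepatocytes, was lower in HCC alone at 4155 in HCC against 13746 in liver and 10028 in Ymac-1, 3.31-fold below liver and 2.41-fold below Ymac-1. On the list of lipid droplet genes and PPAR gamma targets 5 of 32 were thus higher in HCC alone and 1 lower, while Pparg itself was at the floor on all 3 arrays. Among 19 genes of fatty acid synthesis, Scd1, the main desaturase of liver, read 64614 in HCC against 16202 in liver and 6529.6 in Ymac-1. This was the highest reading of the HCC array, and whether it was saturated was not tested. Pnpla3, a lipase of droplets, read 119 in HCC against 43.6 in liver and -1.22 in Ymac-1. Me1, the malic enzyme that supplies NADPH for this pathway, was lower in HCC alone at 613 in HCC against 1539.9 in liver and 2069 in Ymac-1. None of Scd1, Pnpla3 and Me1 kept its call under all 4 other scalings. None of 19 cholesterol synthesis genes and none of 24 genes of fatty acid oxidation was higher or lower in HCC alone (2.32% and 0.629% over all genes). The oxidation list had a median of -0.76 against liver and 2.45 against Ymac-1, which places HCC between the other arrays.

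Macrophage genes had the largest share of members higher in HCC alone among the 43 lists written with the design. Those lists were written with earlier results of these data known, so their ranking is not independent of the data. Of 32 measured macrophage genes, 16 were higher in HCC alone (2.32% over all genes) and none lower. Their medians were 1.01 against liver and 2.51 against Ymac-1. Their summed intensity was 39370.5 in liver, 62136 in HCC and 9711 in Ymac-1, where 25 of 32 were at the floor. Gpnmb, a glycoprotein of lipid-laden macrophages, read 1209.9 in HCC against 37.6 in liver and 177 in Ymac-1, and Trem2, the lipid receptor that marks such cells in fatty liver, read 233 in HCC against 20.04 in liver and 7.95 in Ymac-1. Cd68, a lysosomal protein of all macrophages, read 1064 in HCC against 234 in liver and 230.2 in Ymac-1. Mpeg1, a pore-forming protein of phagocytes, read 3199 in HCC against 871 in liver and 15.8 in Ymac-1, and its second probe gave 607 in HCC against 95.4 in liver and 16.5 in Ymac-1. The other members higher in HCC alone were Ms4a7, Itgax, Cybb, Tyrobp, Lyz1, Fcer1g, C1qa, C1qb, C1qc, Ctss, Laptm5 and Cd14. The 3 chains of complement C1q, which macrophages make, were between 2.14-fold and 2.65-fold higher in HCC than in liver. Cd14, a lipopolysaccharide receptor, read 4387 in HCC against 214 in liver and 2186 in Ymac-1 and was, of the 16, the member with the highest level in the cell line.

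The macrophage genes were also divided into markers of the resident Kupffer cell and of recruited and lipid-associated macrophages. Both lists were drawn up after the values were seen and share genes with the list above. Their counts are thus no result on their own, and the difference between them was not tested. None of 8 resident Kupffer cell markers was higher in HCC alone, where the 2.32% of all genes would give fewer than 1, and their median against liver was 0.18. Clec4f, a lectin of mouse Kupffer cells, read 1207 in HCC against 946 in liver and 49.8 in Ymac-1, and Timd4 and Vsig4, receptors for dying cells and for complement, read 198 and 223 in liver against 194 and 235 in HCC. These were near their liver levels. Marco, a scavenger receptor, read 181 in HCC against 981 in liver and 12.98 in Ymac-1, and Cd163, the hemoglobin scavenger receptor, read 21.2 in HCC against 489 in liver and 0.37 in Ymac-1, and both were lower in HCC than in liver. Of 14 measured markers of recruited and lipid-associated macrophages, 9 were higher in HCC alone, with medians of 2.20 and 2.14, and these included Itgax, which encodes CD11c and read 203 in HCC against 55.9 in liver and 1.19 in Ymac-1, and Cx3cr1, the fractalkine receptor, which read 239.9 in HCC against 19.7 in liver and 10.3 in Ymac-1. Its ligand Cx3cl1 was higher in HCC alone as well, at 313 in HCC against 88.9 in liver and 65.4 in Ymac-1. Mmp12 and Lgals3, also on the list, were at the floor in HCC, and Ccr2, the receptor that brings monocytes into tissue, read 83.5 in liver and 107 in HCC. The 9 genes kept their call under the 4 other scalings of the arrays, whereas of the 16 macrophage list members 9 did. Among the 9 were Cd68, named above for all macrophages, and Lpl and Fabp5, given above with the lipid handling genes.

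**Figure D3:**
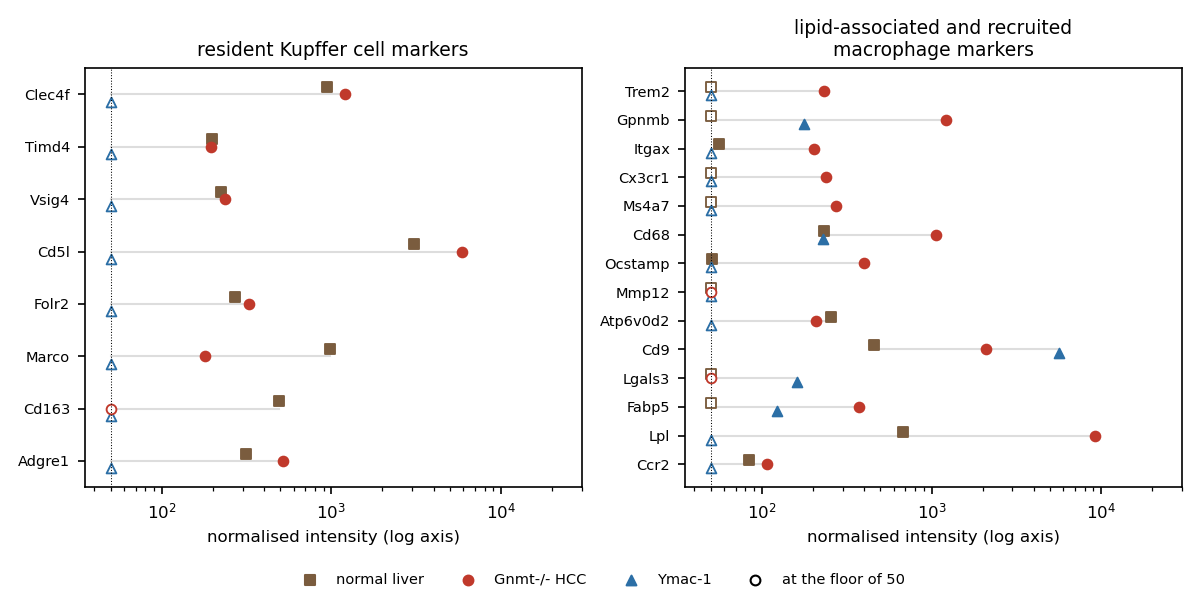
Normalised intensity on a log axis of 8 resident Kupffer cell markers and 14 markers of recruited and lipid-associated macrophages, with squares for normal liver, circles for HCC, triangles for Ymac-1 and open symbols at the floor of 50. Circles and squares lie near each other for Clec4f, Timd4 and Vsig4, and apart for Gpnmb, Trem2 and Lpl.

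MHC class II molecules, which macrophages and B cells use to present antigen, had 3 of 10 measured members higher in HCC alone (2.32% over all genes). Of these, H2-Eb1 alone kept its call under the 4 other scalings. H2-Eb1 read 4489 in HCC against 111 in liver and 40.3 in Ymac-1, H2-Ab1 read 554 in HCC against 211 in liver and 6.96 in Ymac-1 and H2-Aa read 16341 in HCC against 7922 in liver and 8.34 in Ymac-1. The 3 chains were at the floor in Ymac-1 and differed in size against liver, from 2.06-fold for H2-Aa to 40.3-fold for H2-Eb1. The second probe of H2-Eb1 was at the floor on all 3 arrays. Cd74, the invariant chain, read 1379 in HCC against 748 in liver and 5.53 in Ymac-1 and was higher than liver by 0.88 on the log2 scale, under the threshold, and Ciita, the switch of this gene family, was at the floor on all 3 arrays. Promoters of class II genes carry a Y box, searched here as CTGATTGG on both strands in the 300 bases around each gene start (250 before and 50 after) in RefSeq's GRCm38.p6 promoter table. It was found in 4.1% of 32851 promoters, in 3 of the 7 list members with a promoter in the table, and in both of the higher members listed there, H2-Aa and H2-Eb1. Over the 333 genes higher in HCC alone with a promoter it was found in 14 (4.2%). A gene counted if any of its promoters in the table held the motif, whereas the 4.1% is a share of promoters, so the units differ. The motif is in capitals with 25 bases on either side, printed 5′ to 3′ on the gene's strand, for the higher members that held it.
H2-Aa (chr17:34287842-34287899, minus strand): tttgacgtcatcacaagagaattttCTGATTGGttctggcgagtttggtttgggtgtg
H2-Eb1 (chr17:34305780-34305837, plus strand): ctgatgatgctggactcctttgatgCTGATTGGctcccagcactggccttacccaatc

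Interferon-stimulated genes were fewer. Of 42 measured, 4 were higher in HCC alone (2.32% over all genes) and none lower, with medians of 0.24 against liver and 0.89 against Ymac-1. Rsad2, which encodes the antiviral enzyme viperin, read 697 in HCC against 197 in liver and 38.1 in Ymac-1, and Ifit1, which binds foreign RNA, read 229 in HCC against 69.6 in liver and 15.7 in Ymac-1. Usp18, which removes ISG15 from proteins, read 321 in HCC against 70.5 in liver and 114 in Ymac-1, and Irf7, a transcription factor of the interferon response, read 1520.4 in HCC against 654 in liver and 70.4 in Ymac-1. Isg15 itself read 303 in HCC against 121 in liver and 157 in Ymac-1, higher than liver by 1.33 but not far enough above Ymac-1 at 0.95. Off the list, Ubd, the ubiquitin-like modifier FAT10 that interferon gamma and TNF induce, read 2322 in HCC against 127 in liver and 144 in Ymac-1, and Ifi27l2b, of an interferon-induced family, read 4316 in HCC against 656 in liver and 161 in Ymac-1. The interferon-stimulated response element, searched as GAAA, any 2 bases and GAAA on both strands in the same windows, was found in 3.44% of 32851 promoters. It was in 17 of the 32 list members with a promoter (53.1%) and in 2 of the 3 higher members with a promoter in the table. Over the 333 genes higher in HCC alone with a promoter it was in 20 (6.01%). These are shares of genes, counted as for the Y box, and the 3.44% is a share of promoters. Of the 24 macrophage list members with a promoter 3 held it, among them Ctss, a lysosomal protease of antigen presentation, and Cybb, the catalytic chain of the phagocyte oxidase. The element is in capitals below, reading TTTC first where it lies on the opposite strand, and these 4 are shown because they are members of both the tumor set and the lists.
Rsad2 (chr12:26456538-26456597, minus strand): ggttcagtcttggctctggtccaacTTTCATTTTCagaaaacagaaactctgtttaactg
Ifit1 (chr19:34640760-34640819, plus strand): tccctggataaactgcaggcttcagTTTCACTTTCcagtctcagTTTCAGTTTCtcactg
Ctss (chr3:95526740-95526799, plus strand): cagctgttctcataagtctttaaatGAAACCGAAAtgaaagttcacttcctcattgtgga
Cybb (chrX:9469458-9469517, minus strand): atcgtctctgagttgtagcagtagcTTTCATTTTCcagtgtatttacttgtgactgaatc
A match to the Y box or to this element describes the sequence of a window and not the binding of a factor.

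Blood cell genes were uneven. Of 18 neutrophil and mast cell genes 5 were higher in HCC alone (2.32% over all genes). Lcn2, which encodes lipocalin 2 and is made by neutrophils and by injured hepatocytes, read 14299 in HCC against 779.8 in liver and 434 in Ymac-1. S100a9, a calcium-binding protein of neutrophils, read 2231 in HCC against 219 in liver and 2.56 in Ymac-1, Retnlg, a secreted protein of neutrophils, read 776 in HCC against 112 in liver and 1.75 in Ymac-1, and Camp and Mpo, proteins of neutrophil granules, read 376 and 243 in HCC and were at the floor elsewhere. Elane and Ngp, further granule genes, were at the floor on all 3 arrays. The 5 kept their call under every scaling tried. Red blood cell genes had 3 of 8 higher in HCC alone (2.32% over all genes). Another 2 of the 8 were lower in HCC than in liver (3.28% over all genes), and the median against liver was 0. Of the 3, the globin gene Hbb-b1 read 4819 in HCC against 505 in liver and 5.38 in Ymac-1. Alas2, the heme synthesis enzyme of red cell precursors, read 5735 in HCC against 1095 in liver and 18.2 in Ymac-1. Slc4a1, the anion exchanger of the red cell membrane, read 339.9 in HCC against 11.6 in liver and 0.87 in Ymac-1, and the summed intensity of the list was 2055 in liver and 11101 in HCC. The part of blood left in the tissue in these values was not tested. Pf4, the chemokine of platelets, read 1912 in HCC against 105 in liver and 7.95 in Ymac-1. None of 30 T and NK cell genes and none of 12 B and plasma cell genes was higher or lower in HCC alone (2.32% and 0.629% over all genes). At the floor in HCC were 21 of the 30 T and NK cell genes. Their summed intensity was 2275 in liver and 2302 in HCC.

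Endothelial genes were kept more than raised in the tumor. Of 35 measured, 4 were higher in HCC alone (2.32% over all genes), but 28 were higher in HCC than in Ymac-1 (13.6% over all genes). The medians were 0.20 and 2.99. Lyve1, a hyaluronan receptor of sinusoidal and lymphatic endothelium, read 1665 in HCC against 91.6 in liver and 4.51 in Ymac-1, and Vwf, the clotting factor carrier of larger vessels, read 961 in HCC against 119 in liver and 10.1 in Ymac-1. Cd34, found on capillaries that have lost the sinusoidal form, read 398 in HCC against 142 in liver and 31.1 in Ymac-1. Robo4, a guidance receptor of endothelium, passed by a small margin at 2607 in HCC against 1289 in liver and 3.79 in Ymac-1. Stab2, the scavenger receptor of liver sinusoids, was level with liver at 761 against 782, and Kdr, which encodes VEGF receptor 2, was lower in HCC than in liver at 261 against 583.

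Stellate cell, fibroblast and smooth muscle genes had 10 of 46 measured members higher in HCC alone (2.32% over all genes) and none lower. Of the 10, Pdgfra, Acta2, Col6a1 and Col6a3 kept their call under the 4 other scalings and the others, among them Pdgfrb, Lum and Bgn, did not. Pdgfra and Pdgfrb, receptors for platelet-derived growth factor, read 174 and 419 in HCC and were at the floor in Ymac-1. Acta2, the smooth muscle actin of activated stellate cells, read 284 in HCC against 95.6 in liver and -5.63 in Ymac-1. Col6a3 and Col6a1, chains of type VI collagen, read 375 in HCC against 92.6 in liver and 6.08 in Ymac-1 for the former and 487 in HCC against 153 in liver and 173 in Ymac-1 for the latter, and these were the collagens higher in HCC alone of 36 measured chains. Lum and Bgn, small proteoglycans of the matrix, were 2.77-fold and 2.76-fold higher than in liver. Col1a1 and Col3a1, the main fibrillar collagens, were at the floor on all 3 arrays, so their change could not be read. Mmp2, Mmp13 and Adamts9, which cut matrix proteins, were higher in HCC alone at 302, 121 and 131, and none of them was above the floor in Ymac-1.

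Plasma proteins that hepatocytes secrete were mostly shared with liver, and a few went above it. Of 26 hepatocyte markers none was higher or lower in HCC alone (2.32% and 0.629% over all genes). Among 24 acute-phase genes 5 were higher in HCC alone (2.32% over all genes). Of these, Serpina3n, a protease inhibitor, read 1440.4 in HCC against 518 in liver and 0.92 in Ymac-1. Cp, which encodes ceruloplasmin, read 12767 in HCC against 4685 in liver and 1002 in Ymac-1. The second probe of Cp read 81.4 in HCC against 45.0 in liver and 60.5 in Ymac-1, under the threshold. Itih3, a hyaluronan-binding plasma protein, read 19334 in HCC against 8219 in liver and 2.56 in Ymac-1, and Mt2, a metallothionein, read 11752 in HCC against 5618 in liver and 4487 in Ymac-1. Lcn2, the fifth, has the largest value of them. Of these, Lcn2 alone kept its call under all 4 other scalings. The zinc importer Slc39a4 read 8183 in HCC against 2355 in liver and 3653 in Ymac-1. Transporters of the bile acid list with this pattern were Slc51b, of the basolateral exporter, at 639.9 in HCC against 173 in liver and 93.1 in Ymac-1, and Slco1a1 and Slco1a4, organic anion carriers, at 122 and 5636 in HCC. Of 38 cytochrome P450 genes 1 was higher in HCC alone (2.63%, near the 2.32% over all genes) and 12 were lower than liver (3.28% over all genes). The higher gene was Cyp2c70, which makes the muricholic acids of rodents, at 24629 in HCC against 9909.6 in liver and 5.22 in Ymac-1. Mup20, a urinary pheromone carrier more abundant in males, read 18116 in HCC against 5500.2 in liver, both of female mice, and 11.1 in Ymac-1. Its second probe gave 13041 in HCC against 5032 in liver, though Mup genes are near-identical and a probe can read several. Mup20 kept its call under 7 of 8 alternatives for scaling, floor and probe choice, with a weakest value of 0.98. Of 18 sex-biased liver genes 3 were higher in HCC alone (2.32% over all genes). In the same list 8 were lower than liver (3.28% over all genes), and the median against liver was -0.65.

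Genes that respond within minutes to growth signals or stress peaked in part. Of 30 immediate-early genes 16 were higher in HCC than in liver (4.8% over all genes) and 5 were higher in HCC alone (2.32% over all genes). Fosb read 760.3 in HCC against 23.1 in liver and 49.5 in Ymac-1, Nr4a1, an orphan nuclear receptor, read 802 in HCC against 169 in liver and 164 in Ymac-1, and Btg2, an antiproliferative gene, read 317 in HCC against 37.1 in liver and 7.24 in Ymac-1. Zfp36, which destabilises inflammatory mRNAs, and Jund followed at 2.44-fold and 2.23-fold over liver. Fos and Atf3 were high in both tumor and line, with Fos at 2440.1 in HCC against 238 in liver and 1594 in Ymac-1. Of 29 folding genes 1 was higher in HCC alone (3.45%, near the 2.32% over all genes). It was Hspa1a, the inducible heat shock protein, at 179 in HCC against 20.8 in liver and 3.34 in Ymac-1.

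Low-oxygen response genes and glucose genes overlapped. Of 31 glycolysis and glucose genes 5 were higher in HCC alone (2.32% over all genes). Of 32 hypoxia-responsive genes, a list drawn up after the values were seen, 11 were. Adm, which encodes the vessel-widening peptide adrenomedullin, read 872 in HCC against 135 in liver and 233 in Ymac-1, and Hilpda, a lipid droplet protein induced by low oxygen, read 1491 in HCC against 189.8 in liver and 441 in Ymac-1. Of the other probes of Hilpda, 1 gave 850.1 in HCC against 169.7 in liver and 695 in Ymac-1, a difference of 0.29 from Ymac-1, and 1 was at or near the floor throughout. Ankrd37, another target of the hypoxia factor, read 403 in HCC against 35.1 in liver and 96.9 in Ymac-1. Ddit4, an inhibitor of mTORC1, read 5984 in HCC against 184 in liver and 1911 in Ymac-1, 32.6-fold above liver. Pfkfb3, which drives glycolysis by making its activator, read 883 in HCC against 179 in liver and 308 in Ymac-1, and Slc2a3, the neuronal type glucose transporter, read 207 in HCC against 36.4 in liver and 10.6 in Ymac-1. Other genes of this response did not peak in HCC. Slc2a1, the common glucose transporter, was higher in Ymac-1 at 1520.4 than in HCC at 691, Car9 was between 58.2 and 84.4 on all 3 arrays, and Pdk1 and Bnip3 were lower in HCC than in liver, with Pdk1 at 21.3 against 121. Ppp1r3g, which directs a phosphatase to glycogen in liver, read 2130.3 in HCC against 75.2 in liver and 11.2 in Ymac-1.

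The highest tumor-only value of all, 8.60, belonged to Txn1, which encodes thioredoxin, the small protein that reduces disulfides in most cells. It read 19415 in HCC against 5.42 in liver and 5.15 in Ymac-1 from a single probe, so its bound is at least 388-fold against each. Probe sequences were not used here, and whether this probe reads the Txn1 transcript equally in the 3 samples was not tested. The enzymes around it did not follow, with Txnrd1, which recharges thioredoxin, at 6002 in HCC against 5798 in liver and 6761 in Ymac-1, and Prdx1, a peroxidase that thioredoxin serves, lower in HCC alone at 64.7 in HCC against 299 in liver and 344 in Ymac-1. Thiol and antioxidant genes beyond it were divided, and the list of 24 was drawn up after the values were seen, with 6 higher and 2 lower in HCC alone. Cbr3, a carbonyl reductase that Nrf2 induces, read 3050.1 in HCC against 66.5 in liver and 236 in Ymac-1, and Gpx3, the glutathione peroxidase of plasma, read 12200.0 in HCC against 513 in liver and 2129 in Ymac-1. Slc7a11, the cystine importer that feeds glutathione synthesis and an Atf4 target, read 1458 in HCC against 17.4 in liver and 309.9 in Ymac-1, while Gstm3 read 2025 in HCC against 264 in liver and 0.32 in Ymac-1. Gclc, the first enzyme of glutathione synthesis, was lower than liver by -0.94, and Nqo1, a standard Nrf2 target, was at the floor on all 3 arrays.

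Genes of activin signalling went in both directions. Inhbb, a subunit of activin B, read 229 in HCC against 20.6 in liver and 69.99 in Ymac-1 and Fst, which encodes the activin-binding protein follistatin, read 305 in HCC against 52.2 in liver and 141 in Ymac-1, while Inhba, the subunit of activin A, was lower in HCC alone at 37.04 in HCC against 191 in liver and 948 in Ymac-1. Fst had a tumor-only value of 1.11 and kept its call under 7 of 8 alternatives for scaling, floor and probe choice. Efna1, the ligand ephrin A1, read 18697 in HCC against 2903 in liver and 1209 in Ymac-1. Its receptor gene Epha2 was lower in HCC alone at 134 in HCC against 269.8 in liver and 479 in Ymac-1. Epha2, on chromosome 4, passed by a small margin at -1.02 against liver. Dkk3, a secreted protein of the Dickkopf family, and Notch4, a Notch receptor of endothelium, read 1052 and 179 in HCC. Further genes of the highest 25 fell in none of these groups. Sun2, of the bridge between nucleus and cytoskeleton, read 1478 in HCC against -2.85 in liver and -0.17 in Ymac-1, and Rbm24, which governs splicing in muscle, read 1208 in HCC against 21.8 in liver and 8.02 in Ymac-1. Scara5, a ferritin receptor, and Tmc7, of a family of membrane channels, were at the floor in both other arrays and read 707 and 875 in HCC. Cib3, a calcium-binding protein, read 2812 in HCC against 197 in liver and 121 in Ymac-1. Of all 443 genes, 107 were on 1 or more of the 43 lists and 336 on none.

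**Figure D4:**
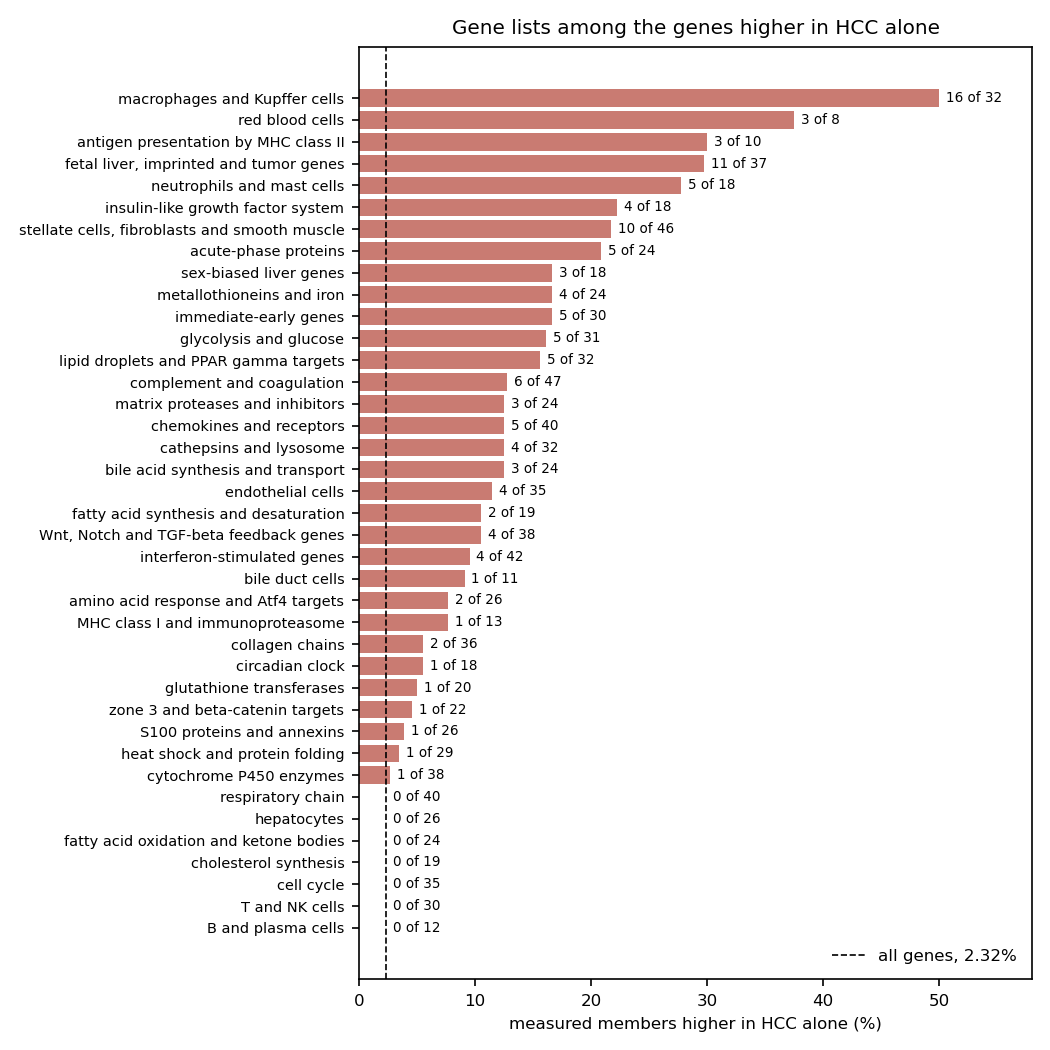
Bars give the percent of measured members of each list that were higher in HCC alone, with the counts at the bar ends and a dashed line at the 2.32% of all genes. The macrophage list stands at 16 of 32, and the T and NK cell, B and plasma cell, hepatocyte and cell cycle lists at 0.

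Several lists had no member with this pattern, which was rare over all genes as well, at 2.32% higher and 0.629% lower in HCC alone. An empty count in a list of this size thus says little about its members. None of 35 cell cycle genes was higher or lower in HCC alone. 9 of them were higher than in liver and 28 lower than in Ymac-1 (16% over all genes), with Top2a, which untangles replicated DNA, at 111 in HCC against 16.5 in liver and 4176 in Ymac-1. Of 40 respiratory chain genes, 22 genes of methionine and methyl group metabolism and 15 urea cycle genes none was higher or lower in HCC alone. The methionine list had medians of -0.21 against liver and 1.82 against Ymac-1.

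Genes lower in HCC alone were fewer and shallower, and 5 of the 120 were on one of the lists written with the design, which were Plin2, Me1, Ctsc, Inhba and Rpl34. Wdr1, which takes actin filaments apart together with cofilin, read 1.53 in HCC against 4061 in liver and 9632 in Ymac-1, so that liver was at least 81.2-fold and Ymac-1 at least 193-fold above HCC. Its second probe was at the floor on all 3 arrays, and whether its first reads the transcript equally in the 3 samples was not tested, nor was this tested for the probe of Ctsc. Ctsc, the lysosomal protease that activates the serine proteases of neutrophils, read 1.25 in HCC against 577 in liver and 595 in Ymac-1 from its only probe. Both were at the floor in HCC, and Ctsc was at like levels in liver and the line. Sult1c2, a sulfotransferase, read 71.3 in HCC against 326 in liver and 1368 in Ymac-1, and Hacd1, which takes part in the lengthening of fatty acids, read 512 in HCC against 1942 in liver and 3258 in Ymac-1. In most of the 120, 92 by count, Ymac-1 was the higher of the other arrays, and liver was in 28.

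The lower genes included some of mitochondrial translation, RNA handling and ribosome assembly. A list of 20 was assembled from the lower genes themselves, so its count is no result, and 1 of the 20 kept its call under the 4 other scalings. Mrm2, a methyltransferase of mitochondrial ribosomal RNA, read 68.4 in HCC against 278 in liver and 323 in Ymac-1, and Mrpl14, a protein of that ribosome, read 793 in HCC against 2834 in liver and 2462 in Ymac-1. Ndufab1, which carries acyl groups in mitochondria and is a subunit of complex I, read 85.03 in HCC against 281 in liver and 389.8 in Ymac-1. Mdn1, a motor of ribosome assembly, read 41.8 in HCC against 177 in liver and 169 in Ymac-1 and Eif3i, of an initiation factor, 387 in HCC against 858 in liver and 3327 in Ymac-1. The 26 measured cytoplasmic ribosomal proteins had a median of 0.00 against liver, with Rpl34 the 1 lower in HCC alone, and the 40 respiratory chain genes had a median of -0.15. Rad51c, of recombination repair, and Usp1, which trims ubiquitin from repair proteins, read 26.8 and 59.4 in HCC, and both were highest in Ymac-1 at 618 and 1625. Alad, the second enzyme of heme synthesis, read 175 in HCC against 991 in liver and 478 in Ymac-1, and Ltbr, the lymphotoxin beta receptor, read 162 in HCC against 957 in liver and 444 in Ymac-1.

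The lower genes were not spread evenly over the chromosomes. Genes were placed by the RefSeq gene table, by order only. Of the 120, 25 lay on chromosome 4, which is 2.2% of its 1135 measured genes (0.629% over all genes), and the shares of the other autosomes and X ran from 0.113% to 1.27%. They included Prdx1, Mdn1, Alad, Plin2, Usp1, Eif3i, Epha2, Med8 and Nudc. The shift was not limited to genes past the threshold. Over the 487 genes of chromosome 4 that exceeded the floor on every array, HCC minus liver had a median of -0.38, and 75.6% of them were below liver, whereas the medians of the other 19 chromosomes ran from -0.17 to 0.09 and their shares below liver from 44.0% to 59.7%. In order along chromosome 4, 8 consecutive stretches of 60 or 61 genes had medians from -0.45 to -0.31, so each part of the chromosome was low. The genes lower in HCC alone occurred in every stretch, between 1 and 6 in each. Ymac-1 did not share this, with a median of 0.04 for Ymac-1 minus liver on chromosome 4, inside the range of the other chromosomes (-0.56 to 0.58). HCC minus Ymac-1 had a median of -0.37 on chromosome 4, inside the range of the other chromosomes (-0.71 to 0.46), so against the line the chromosome did not stand apart. On the deposited scaling the median of chromosome 4 was 0.37 where the others ran from 0.55 to 0.81, so it was again the lowest. The percent of its 1135 genes that were lower in HCC alone was also the highest of the chromosomes under 3 other scalings. It was 8.63% with arrays scaled to their median (98 of the 602 lower genes) and 1.67% with the upper quartile (19 of 106). With differences centred it was 1.06% (12 of 59). With the deposited scaling it was 0.264% (3 of 18), and chromosome 17 had the highest percent of its own genes at 0.334%. Copy number was not measured in these samples.

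**Figure D5:**
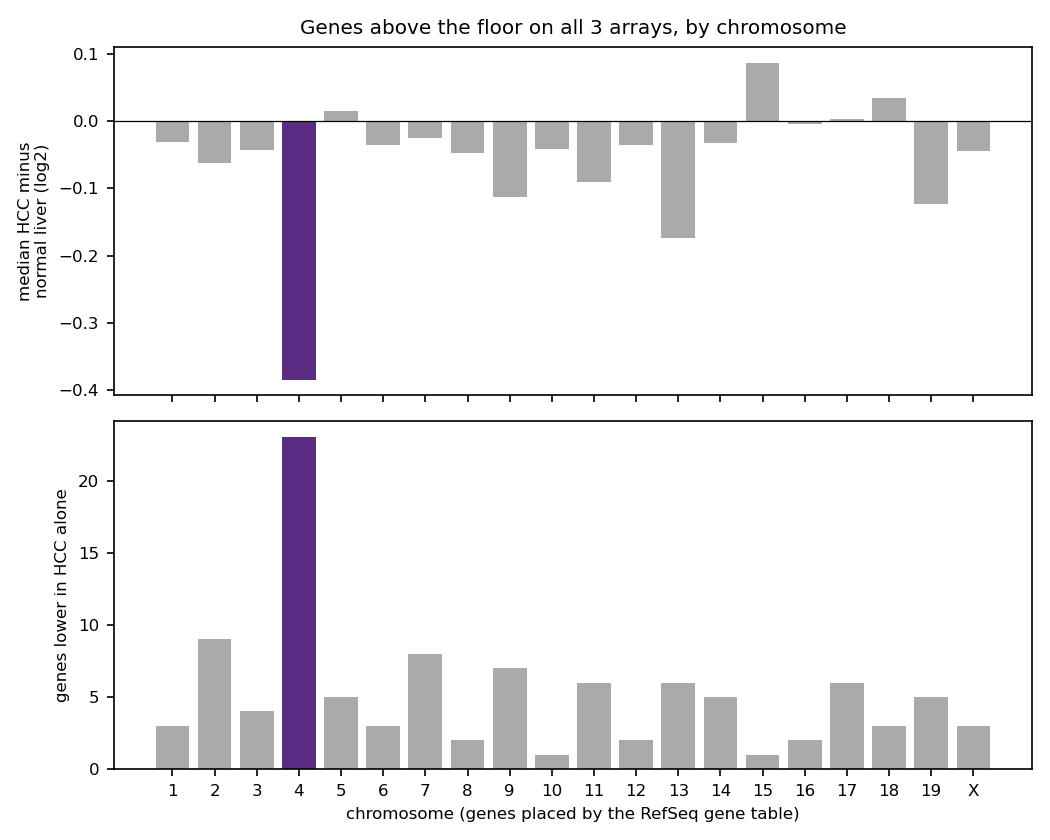
The upper bars give the median HCC minus normal liver in log2 intensity over genes above the floor on all 3 arrays for each chromosome, and the lower bars the number of those genes that were lower in HCC alone. Chromosome 4 (purple) has a median of -0.38 and 23 such genes, and the other medians lie between -0.17 and 0.09.

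The scaling of the arrays changed how many genes peaked or dipped. With the deposited scaling 1191 genes were higher and 18 lower in HCC alone, and with each array scaled to its median 263 and 602. Of the 443 genes, 249 kept their call under all 4 other scalings, and of the 120, 17 did. Among them were Txn1, Tff3, H19, Igf2, Fabp4, Lpl, Lcn2, Cd68, Trem2, Afp and Gpc3 on the higher side and Wdr1, Ctsc, Plin2 and Prdx1 on the lower. Members near the threshold, such as Robo4, Pros1, Mt2, Slco1a4 and H2-Aa, lost the call when arrays were scaled to their median. Of the members higher in HCC alone, 9 of 11 on the fetal list, 3 of 4 on the interferon list, 2 of 4 on the endothelial list, 3 of 5 on the immediate-early list and 6 of 11 on the hypoxia list kept their call under all 4. On the complement and coagulation list 1 of 6 did, and on the fatty acid synthesis list none of 2.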

How the data were processed

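Total RNA (1 µg) was labelled, hybridized to OneArrays and read in 1 colour. The deposited values are linear intensities, background-subtracted by the authors and partly below 0, for 26423 probes. How arrays were scaled to each other is not given by the sources at hand. Platform annotation gave 21876 probes 1 gene symbol, none several and 4547 none, and the 19084 genes include 2424 with several probes. The probe brightest on average in log2 intensity (floor 50), as deposited, stood for a gene. Quantile normalisation, the floor and log2 were applied here, in Python 3.11.15 with pandas 2.3.3, numpy 2.4.6 and matplotlib 3.10.9, and the code was tested on simulated data. The methods pair the 2-fold ratio with a P value, which was not used, since 1 array per condition gives none.

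Members, 43 gene lists and 7 added lists were chosen with earlier results of these data known. The added lists were drawn up after the values were seen, so their counts are no result on their own. The text names the 25 highest and 15 lowest genes, the 10 largest each among genes that exceeded the floor on every array, up to 6 members per list with defining members that did not pass, Gnmt, and 3 genes on each side of both thresholds. Others were named after their values were seen. Promoter sequences and motifs came from RefSeq's table for GRCm38.p6. Alternatives changed the scaling, floor, probe choice, threshold, filter on dim genes and unit counted.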

Additional observations from a re-analysis of the deposited data

How the results depend on the processing

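With 1 array per condition no array could be left out. No paired analysis was possible because each condition has 1 array. The scaling between arrays changed both counts, and the cause was not tested. The 443 genes higher in HCC alone became 1191 with the deposited scaling and 263 with arrays scaled to their median, and the 120 lower genes became 18 and 602. Centring the deposited differences on their median gave 59 lower genes and 470 higher. A floor of 25 gave 182 lower genes and a floor of 100 gave 79. A threshold of 1.5-fold gave 865 higher and 536 lower genes and one of 4-fold 115 and 8, and requiring all 3 arrays above the floor left 164 higher genes, since these settings admit more or fewer genes by construction. The upper quartile scaling, the mean of a gene's probes, the probe chosen after normalisation and counting probes moved neither count by over 1.5 times. Of the 110 higher genes chosen by the stated rule 66 kept their call under all 8 alternatives for single genes, and of the 23 lower genes so chosen 8 did. None of them came to pass in the other direction, but with the mean of its probes Spint2 had differences of opposite sign. Median scaling took the call from 34 of the 110, and the deposited scaling from 12 of the 23. Folds against readings at the floor depend on that floor.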

Other observations

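Probes with no gene symbol showed the pattern less often than the named genes. Of 4547 such probes, 38 were higher in HCC alone (0.836%, against 2.32% over all genes) and 14 were lower (0.308%, against 0.629%). The highest read 2510.0 in HCC against 108 in liver and 8.80 in Ymac-1. Their genes are not named here.

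Ymac-1 minus liver also differed by chromosome over genes that exceeded the floor on every array. The median was -0.39 over 270 genes of chromosome 12 and -0.56 over 276 genes of chromosome 14, and 0.58 over 308 genes of chromosome 19. In HCC minus liver these 3 chromosomes had medians of -0.04, -0.03 and -0.12.

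Several of the largest values rest on a reading at the floor for a gene with 1 informative probe. Txn1 and Sun2 were at the floor in both liver and Ymac-1, and Wdr1 and Ctsc were at the floor in HCC. Whether their probes match the transcripts of each sample's strain was not tested.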
